A study of Mus musculus with 9 samples.

Results

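Primary cultures of mouse cortical astrocytes were sequenced as 9 RNA libraries, and the names of those libraries follow 2 styles that divide them into 2 sets. The first replicate of each treatment group and the second control form set 1. Both remaining acetate libraries, both remaining ones with Aβ plus acetate and the third control form set 2. The 9 libraries are all those analysed, 4 in set 1 and 5 in set 2, and the membership rests on the library names alone. No label explains the split, so a date, a preparation, an operator, a dissection and a culture batch cannot be told apart. The 2 sets are compared here across all genes, with the treatment group as a covariate.

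The cells came from the cortex of wild-type C57BL/6 pups at postnatal day 1 or younger, and were grown in DMEM with glucose, horse serum and fetal bovine serum. Every group spent the last 1 day in glucose-free medium, so the controls are glucose-deprived too. The acetate group had 10 mM sodium acetate during that day. Oligomers of amyloid-beta (Aβ) at 1 µM were added to the Aβ plus acetate cultures on day 8 and kept for 5 days, with acetate present during the last. The medium was changed on day 11 and RNA was taken on day 12. Each of the 3 treatment groups has libraries in both sets, 2 controls in set 1 against 1 in set 2, and 1 treated library of each kind in set 1 against 2 in set 2. Primary astrocyte cultures of this kind can hold microglia, oligodendrocyte precursors, ependymal cells and meningeal fibroblasts beside astrocytes. The titles call the samples biological replicates, and the labels do not say whether cultures shared pups, so the spread between libraries may be partly technical.

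The unfolded protein response is the cell's reaction to misfolded protein in the endoplasmic reticulum (ER). The membrane sensors PERK, IRE1 and ATF6 start it, XBP1 and cleaved ATF6 switch on chaperones and degradation factors, and PERK, by phosphorylating eIF2α, favours translation of ATF4, which switches on amino acid genes and the factor CHOP. The extracellular matrix and contractile genes are another programme of cultured glia, fibroblasts and smooth muscle cells. It depends on TGF-β signalling and on the actin-sensing cofactors MRTF and YAP, which act through SRF and TEAD on DNA.

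Values are CPM, reads per 1000000 over the listed genes, and differences are set 2 minus set 1 on the log2(CPM + 1) scale, so low genes are understated. A gene was called at an adjusted p under 0.05 (limma, Benjamini-Hochberg over all genes tested). Of 14058 genes tested, 9929 (70.6%) were called, 5394 higher in set 2 (38.4%) and 4535 lower (32.3%). The median absolute difference was 0.40 on the log2 scale, against a median SD between libraries of 0.12 within each set. Differences beyond 1 on the log2 scale were called for 1049 genes higher (7.46%) and 1129 lower (8.03%), and beyond 2 for 165 higher (1.17%) and 270 lower (1.92%). All 5 libraries of set 2 lay above all 4 of set 1 for 4791 genes (34.1%) and below them for 4141 genes (29.5%). With so many genes called, the count for a gene group is read against these percentages.

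The first principal component, with 89.7% of the variance, placed the 4 libraries of set 1 between -56.7 and -51.4 and the 5 of set 2 between 37.3 and 48.1. Depth did not separate the sets, at 22160000 to 57030000 implied reads in set 1 and 35530000 to 53310000 in set 2 (two-sided exact permutation p = 0.286). The number of genes with a CPM of at least 1 was 13504 to 13723 in set 1 and 13567 to 13714 in set 2. Rn45s, the ribosomal RNA precursor, made up 0.875 to 3.38% of each library in set 1 and 0.486 to 2.17% in set 2 (exact permutation p = 0.111). The 100 highest genes of a library took 16.8 to 19.4% and 16.5 to 17.7% (exact permutation p = 0.0635). The libraries of the sets overlapped in depth, in genes detected, in the Rn45s share and in the share of the 100 highest genes. In the fit with treatment as covariate Rn45s was called lower in set 2 (log2 -1.14, SE 0.38, adjusted p = 0.0188), with differences of -0.02 in control, -0.93 in acetate and -2.46 in Aβ plus acetate libraries. That call was lost without control 1 (-1.06), without acetate 1 (-1.24), without Aβ plus acetate 1 (-0.48), under quantile normalization (-0.46) and with no treatment covariate (-0.99).

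The 5 marker genes were picked with earlier results of these data known. Ddit3 (chromosome 10 from 127290793 to 127296289, mm10) encodes CHOP, a transcription factor of prolonged ER stress. It had 17.8, 13.8, 14.2 and 18.2 CPM in set 1, for controls 1 and 2, acetate 1 and then Aβ plus acetate 1. In set 2 it had 680, 653, 678, 741 and 671 CPM, for control 3, then acetate 2 and 3, then Aβ plus acetate 2 and 3. The same order holds wherever 4 and 5 values are listed below. Ddit3 was 42.8-fold higher in set 2, with the 5 libraries close to one another and far above set 1 (log2 5.34, SE 0.09, adjusted p = 5.26e-12).

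Hspa5 (chromosome 2 from 34772090 to 34776530) encodes BiP, the main Hsp70 chaperone of the ER. Its level was 569, 674, 530 and 582.1 CPM in set 1 and 7032, 5790, 7342, 7046 and 6366 CPM in set 2, an 11.4-fold difference in means (log2 3.55, SE 0.09, adjusted p = 1.25e-10). It made up 0.0530 to 0.0674% of all CPM in set 1 and 0.579 to 0.734% in set 2. Trib3 (chromosome 2 from 152337425 to 152344061, minus strand) encodes a pseudokinase switched on by ATF4 and CHOP. It had 2.74, 2.57, 2.02 and 3.51 CPM in set 1 and 248, 236, 202, 239 and 230 in set 2, the largest positive difference of all genes called (log2 5.99, SE 0.09, adjusted p = 5.26e-12).

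Col1a1 (chromosome 11 from 94936224 to 94953043) encodes a chain of type I collagen. It had 347, 328, 359 and 401 CPM in set 1 and 11.4, 35.4, 13.4, 11.05 and 8.98 in set 2, so it was 22.4-fold lower in set 2 (log2 -4.65, SE 0.26, adjusted p = 3.5e-08). Acta2 (chromosome 19 from 34240336 to 34255374, minus strand) encodes smooth muscle α-actin, a contractile protein. Its 2081, 1883, 1780 and 1962 CPM in set 1 stood above 276, 384, 279, 265 and 288 CPM in set 2, a 6.45-fold difference (log2 -2.70, SE 0.11, adjusted p = 2.93e-09). In both genes acetate 2 was the highest library of set 2, yet far below every library of set 1. In bulk RNA, fewer cells that express a gene and less of its RNA per cell cannot be told apart.

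**Figure D1:**
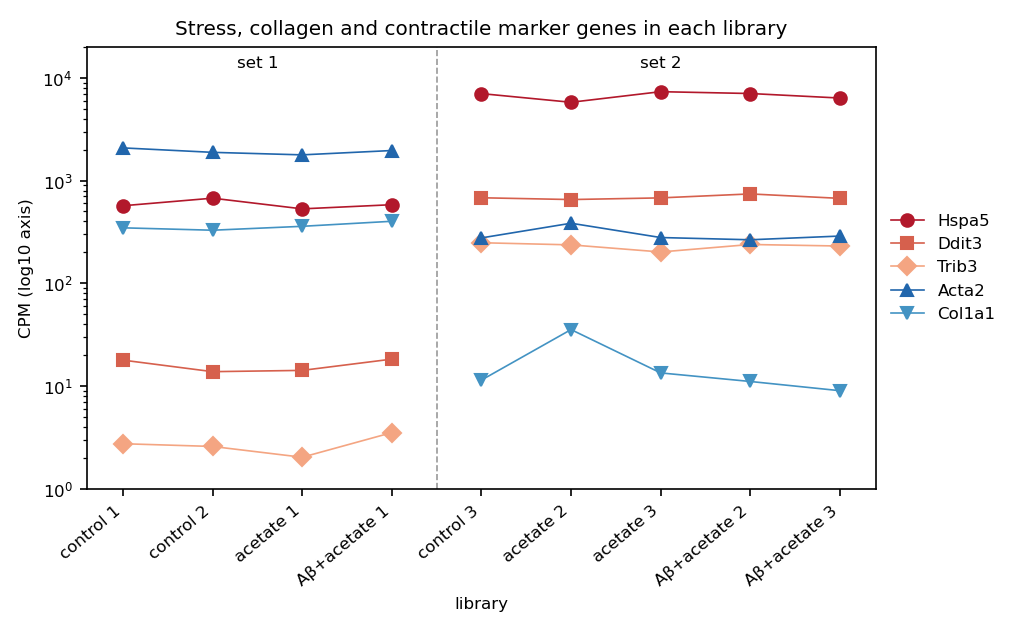
CPM of the 5 marker genes (log10 axis) in each of the 9 libraries, set 1 left and set 2 right of the dashed line; the lines join libraries of a set only to guide the eye. Hspa5, Ddit3 and Trib3 are higher in every library of set 2, and Acta2 and Col1a1 are lower, with acetate 2 the highest of set 2 for both.

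The set difference had the same direction in all 3 treatment groups for nearly every gene called. Of the 9929 genes called, 9870 (99.4%) had the same sign in the control, the acetate and the Aβ plus acetate libraries, as did all 2178 called with a difference beyond 1. No library is shared between these 3 estimates. The call pools all 3 of them, however, so agreement in sign among the genes called is partly fixed by that selection. Across genes, which are not independent replicates, Pearson's r of the set difference was 0.936 between control and acetate libraries, 0.951 between control and Aβ plus acetate, and 0.947 between acetate and Aβ plus acetate. Trib3 stood at 6.09, 6.18 and 5.71 on the log2 scale in control, acetate and Aβ plus acetate libraries, and Col1a1 at -4.77, -3.97 and -5.20.

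**Figure D2:**
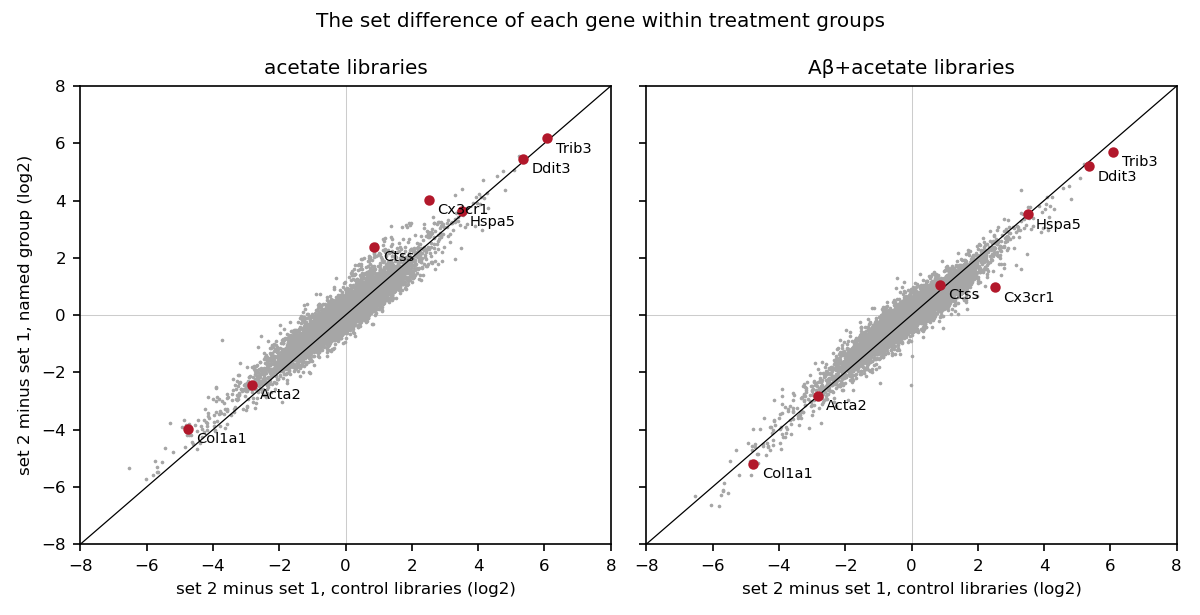
Set 2 minus set 1 (log2) of each of the 14058 tested genes within the control libraries (x axis) against the same within the acetate libraries (left) and the Aβ plus acetate libraries (right); grey points are genes, red points are named genes, and the line is equality. Most genes lie near the line, while Cx3cr1 and Ctss, 2 microglial genes, lie above it in the acetate panel.

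The ER stress sensors and the transcription factors they act through were nearly all higher in set 2. Of 13 tested, 12 were higher and 1 lower, with a median log2 difference of 1.69. Eif2ak3, which encodes the sensor PERK, had 47.1, 47.1, 43.6 and 46.3 CPM in set 1 and 140, 121, 131, 131 and 130 in set 2 (log2 1.51, SE 0.06, adjusted p = 2.03e-09). Atf6, the sensor that is itself a transcription factor once cleaved, had 84.4 to 99.8 CPM in set 1 and 234 to 343 in set 2 (log2 1.69). Ern1, which encodes the sensor IRE1, differed least of the 3 sensors, at 11.8 to 16.3 and 23.8 to 27.6 CPM (log2 0.89, SE 0.09, adjusted p = 4.66e-06). The sets did not overlap for any of the 3 sensors.

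Downstream of PERK, Atf4 had 117, 106, 91.9 and 110 CPM in set 1 and 679, 660, 692, 666 and 657 in set 2 (log2 2.68, SE 0.07, adjusted p = 1.68e-10). The 5 values of set 2 spanned a narrow range, with an SD of 14.6 CPM around a mean of 671. Atf3, a stress factor that ATF4 switches on, was 14.7-fold higher, at 6.57 to 15.8 CPM in set 1 and 159 to 189 in set 2 (log2 3.91). Cebpg, a dimer partner of ATF4, was 5.23-fold higher. Xbp1, whose RNA IRE1 splices, had 43.4 to 52.2 CPM in set 1 and 294 to 313 in set 2 (log2 2.65). Gene-level CPM do not tell spliced from unspliced Xbp1. The lower member was Creb3l2, an ER-bound factor of secretory cells, at 93.3 to 108 and 66.4 to 75.5 CPM (log2 -0.46, adjusted p = 0.000142).

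Chaperones and folding enzymes of the ER were higher with 1 exception. Of 22 tested members, 21 were higher and 1 lower (median log2 1.86), and the summed CPM of the list was 5363 to 6125 in set 1 and 22010 to 29340 in set 2. Hsp90b1, the ER form of Hsp90, had 603, 730, 633 and 689 CPM in set 1 and 4878, 3475, 5333, 4339 and 3946 in set 2 (log2 2.74, SE 0.13, adjusted p = 7.56e-09). Sdf2l1, a cofactor of BiP, had 7.63 to 11.8 CPM in set 1 and 243 to 329 in set 2, which made it 28.0-fold higher. Creld2, a folding protein released under ER stress, was 14.6-fold higher (log2 3.86), and Hyou1, a nucleotide exchange factor for BiP, 8.77-fold (log2 3.17). Manf, an ER-resident secreted protein, stood at 87.4 to 101 and 747 to 965 CPM, and the BiP cochaperone Dnajb9 at 62.8 to 93.5 and 591 to 940 CPM.

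Within set 2, acetate 2 held the lowest value of Hspa5, Hsp90b1, Sdf2l1, Creld2, Manf, Dnajb9, Pdia4, Calr and Hyou1, and acetate 3 the highest, except for Sdf2l1 and Dnajb9, which were highest in control 3. The disulfide isomerase Pdia4 had 373 to 400 CPM in set 1 and 1908 to 2483 in set 2, and the lectin chaperone Calr 563 to 714 and 2052 to 2687. P4hb, which serves both as protein disulfide isomerase and as a subunit of collagen prolyl hydroxylase, differed little, at 458 to 527 and 580 to 679 CPM (log2 0.35, adjusted p = 0.0013). The member lower in set 2 was the reductase Dnajc10, at 153 to 196 and 125 to 165 CPM, with overlap between the sets (log2 -0.30, adjusted p = 0.0199).

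ER-associated degradation moves misfolded protein back to the cytosol. Of its 18 tested genes 12 were higher and 0 lower, with a median of 1.02. Derl3, a channel component, had 2.03, 1.72, 1.15 and 1.55 CPM in set 1 and 106, 74.6, 135, 96.3 and 97.4 in set 2 (log2 5.35, SE 0.15, adjusted p = 2.27e-10). Herpud1, an ER membrane protein that recruits the ubiquitin ligase, had 44.9, 43.6, 40.4 and 41.5 CPM in set 1 and 774, 726, 727, 766 and 729 in set 2 (log2 4.12, SE 0.06, adjusted p = 3.48e-12), the smallest adjusted p of all genes tested. The ligase Syvn1 and its scaffold Sel1l stood at 2.45 and 2.22 on the log2 scale. Of the 6 members not called, the ATPase Vcp, which pulls proteins out of the membrane, had 370 to 399 CPM in set 1 and 349 to 405 in set 2 (log2 -0.02, adjusted p = 0.847).

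Targets of ATF4 and CHOP were higher almost throughout. Of 24 tested, 23 were higher and 0 lower (median log2 2.29). Chac1, which breaks down glutathione, had 6.61, 4.92, 4.34 and 6.45 CPM in set 1 and 159, 157, 152, 162 and 162 in set 2 (log2 4.63, SE 0.10, adjusted p = 3.4e-11). Asns, asparagine synthetase, had 15.3 to 22.1 and 270 to 305 CPM (log2 3.88), and the mitochondrial folate enzyme Mthfd2 10.4 to 13.2 and 140 to 178 CPM (log2 3.60). Ppp1r15a encodes GADD34, which restores translation by recruiting a phosphatase to eIF2α, and was 10.2-fold higher. Vldlr, a lipoprotein receptor that ATF4 controls, was 11.5-fold higher. The secreted stress factor Gdf15 stood at 5.82 to 10.9 and 46.1 to 66.4 CPM, and the serine synthesis enzyme Psat1 at 157 to 179 and 511 to 550 CPM.

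Amino acid transporters and tRNA synthetases, which ATF4 also controls, followed. Of 12 transporters 11 were higher and 1 lower (median 2.37). Slc7a11, the cystine transporter, had 8.28, 12.5, 5.49 and 18.5 CPM in set 1 and 196, 135, 217, 217 and 203 in set 2 (log2 4.103, SE 0.21, adjusted p = 1.87e-08). Its values varied among libraries more than those of Slc7a5, the large neutral amino acid transporter, which had 60.2 to 71.7 and 723 to 781 CPM (log2 3.47). The cationic amino acid transporter Slc7a3 stood at 0.993 to 1.26 and 24.5 to 38.1 CPM. The lower member was Slc7a6, at 22.9 to 27.4 and 17.97 to 23.05 CPM with overlap (log2 -0.19, adjusted p = 0.0441). Of 20 cytosolic tRNA synthetases 18 were higher and 0 lower (median 1.497), led by Eprs at 160 to 179 and 821 to 966 CPM (log2 2.39). Those for glutamine (Qars, log2 -0.02, adjusted p = 0.751) and Farsa, a subunit of the phenylalanine enzyme (log2 0.08, adjusted p = 0.355), were not called.

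Of the 10 genes with the largest positive differences, 3 lie outside these lists. Trim66, a chromatin reader, had 1.28, 0.858, 1.05 and 1.47 CPM in set 1 and 68.8, 65.4, 69.8, 63.5 and 70.6 in set 2 (log2 4.98, SE 0.10, adjusted p = 3.4e-11). Fibin, a secreted protein, had 2.83 to 3.66 and 63.1 to 84.9 CPM (log2 4.22), and Ppp1r16b, a regulator of protein phosphatase 1, 0.754 to 1.18 and 29.8 to 50.1 CPM (log2 4.41). The sets did not overlap for any of them. The acyl-CoA thioesterase Acot2 was 8.80-fold higher with little spread, at 18.6 to 20.9 CPM in set 1 and 172 to 181 in set 2.

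Promoter sequences are shown for genes with large differences whose RefSeq promoter holds a known stress element. The elements searched, on both strands, were the C/EBP-ATF response element (CARE, TGATGNAA), which ATF4 and CHOP dimers bind, the ER stress response element (ERSE), which ATF6 and NF-Y bind and which reads CCAAT, any 9 bases and CCACG, and the shorter ERSE-II, which reads ATTGG, any base and CCACG. Windows ran from 250 bases before to 50 after each annotated start (RefSeq, GRCm38.p6), and 11222 of the 14058 tested genes had one. The 250 bases before the start follow, 5′ to 3′ on the gene's strand, with the elements in capitals. Hspa5 (chr2:34771840-34772089, plus strand) has an ERSE at positions -65 to -47 from the start. Derl3 (chr10:75893148-75893397, plus strand) has one at -156 to -138. Herpud1 (chr8:94386179-94386428, plus strand) has a CARE at -112 to -105 and an ERSE-II at -52 to -42. Chac1 (chr2:119350992-119351241, plus strand) has a CARE at -193 to -186. Slc7a11 (chr3:50443614-50443863, minus strand) has 2, at -66 to -59 and -47 to -40. Atf3 (chr1:191183334-191183583, minus strand) has 1, at -110 to -103.
Hspa5: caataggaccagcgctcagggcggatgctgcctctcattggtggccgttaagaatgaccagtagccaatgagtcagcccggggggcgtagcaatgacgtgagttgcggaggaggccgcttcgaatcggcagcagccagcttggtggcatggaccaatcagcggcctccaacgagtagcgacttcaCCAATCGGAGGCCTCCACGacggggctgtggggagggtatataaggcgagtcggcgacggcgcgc
Derl3: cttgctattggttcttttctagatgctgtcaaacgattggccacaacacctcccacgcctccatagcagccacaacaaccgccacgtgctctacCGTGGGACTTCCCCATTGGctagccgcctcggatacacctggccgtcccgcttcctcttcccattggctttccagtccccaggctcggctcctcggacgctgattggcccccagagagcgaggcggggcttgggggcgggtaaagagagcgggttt
Herpud1: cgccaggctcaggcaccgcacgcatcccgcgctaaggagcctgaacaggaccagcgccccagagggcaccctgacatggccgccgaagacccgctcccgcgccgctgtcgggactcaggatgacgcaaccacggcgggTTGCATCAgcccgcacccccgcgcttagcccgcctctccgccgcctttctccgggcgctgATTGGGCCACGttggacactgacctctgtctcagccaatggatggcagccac
Chac1: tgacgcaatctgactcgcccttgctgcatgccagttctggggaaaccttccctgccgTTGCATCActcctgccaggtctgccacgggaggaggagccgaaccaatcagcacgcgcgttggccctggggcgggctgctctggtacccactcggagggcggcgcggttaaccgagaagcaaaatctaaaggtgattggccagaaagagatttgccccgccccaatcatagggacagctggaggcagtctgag
Slc7a11: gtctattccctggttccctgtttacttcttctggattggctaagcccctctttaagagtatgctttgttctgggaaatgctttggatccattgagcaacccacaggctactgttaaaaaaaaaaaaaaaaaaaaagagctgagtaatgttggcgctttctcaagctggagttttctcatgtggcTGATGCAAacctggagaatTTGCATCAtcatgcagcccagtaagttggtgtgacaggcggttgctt
Atf3: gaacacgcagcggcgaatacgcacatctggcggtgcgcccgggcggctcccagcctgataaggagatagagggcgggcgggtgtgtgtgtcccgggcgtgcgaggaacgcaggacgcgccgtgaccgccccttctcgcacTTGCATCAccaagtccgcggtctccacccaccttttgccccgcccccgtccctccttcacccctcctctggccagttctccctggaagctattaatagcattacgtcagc

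The share of genes with these elements was larger among genes with larger positive differences. A CARE was in the window of 2.73% of all genes tested, 3.69% of those called higher and 2.03% of those called lower. It was in 58 of 814 genes (7.13%) called higher beyond 1 and 16 of 119 (13.4%) beyond 2, thresholds chosen with the data in view. The ERSE was in 21 genes of 11222 (0.187%), of which 16 were called higher and 2 lower. Of the 119 genes beyond 2, 7 (5.88%) held it. An ERSE-II was in 8 genes, of which 7 were called higher. By list, the ERSE was in 8 of 19 ER chaperone genes with a promoter, and the CARE in 6 of 22 ATF4 and CHOP targets and 5 of 13 tRNA synthetases. Ddit3 had no match in its window, which says only that these letters are not there. Trib3 had a CARE in the 50 bases after the start, which are not printed. A match is a description of letters, not of binding. Counting also the CArG box, which is described below, 8 genes held more than 1 kind of element.

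**Figure D3:**
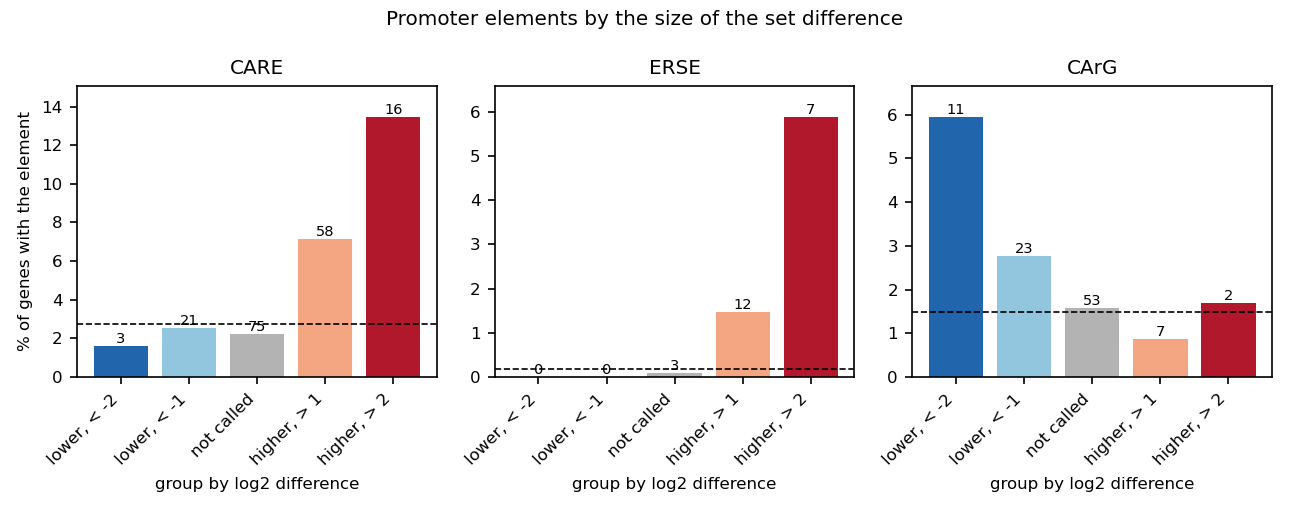
Share of genes (%) whose promoter window holds the CARE, the ERSE or the CArG box, by the size of the set difference (log2, set 2 minus set 1); numbers on the bars are genes with the element and the dashed lines are all genes tested. The bars beyond 2 stand at 13.4% for the CARE and 5.88% for the ERSE among genes higher in set 2, and at 5.95% for the CArG box among genes lower in set 2.

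Other stress responses did not share this pattern. Cytosolic heat shock genes numbered 9 lower and 2 higher of 18 (median -0.19). Hspa8, the constitutive cytosolic Hsp70, had 1699, 1702, 1571 and 1643 CPM in set 1 and 507, 538, 476, 499 and 492 in set 2 (log2 -1.70, SE 0.07, adjusted p = 2.4e-09). The small heat shock protein Hspb1 was 10.9-fold lower, at 34.0 to 56.0 and 2.36 to 6.39 CPM. Hsp90aa1, the inducible cytosolic Hsp90, had 681 to 795 and 740 to 864 CPM and was not called (adjusted p = 0.259). The Hsp70 of the ER (Hspa5) and that of the cytosol (Hspa8) therefore differed in opposite directions.

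Targets of p53 were 11 lower and 4 higher of 18 (median -0.45). Gadd45a, which ATF4 and p53 both switch on, was 7.84-fold higher, at 32.8 to 49.5 CPM in set 1 and 304 to 361 in set 2, while the cell cycle inhibitor Cdkn1a was lower, at 223 to 266 and 133 to 154 CPM (log2 -0.80). Apoptosis genes were 12 lower and 6 higher of 18 (median -0.43). The pro-apoptotic BH3 gene Bmf was 6.51-fold lower and Bcl2l11 2.50-fold lower, although CHOP is known to switch on the latter. Another BH3 gene, Hrk, was 6.79-fold higher, at 1.51 to 2.77 and 13.1 to 18.4 CPM. NRF2 antioxidant genes split into 10 higher and 8 lower of 23 (median 0.13). Hmox1, which breaks down haem, was 2.86-fold higher and the peroxidase Prdx1 1.75-fold lower.

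Hypoxia genes were 8 higher and 6 lower of 15 (median 0.27), with Vegfa, the vascular growth factor, at 94.6 to 115 CPM in set 1 and 246 to 285 in set 2, and the peptide Adm at 20.0 to 28.8 and 6.47 to 8.29 CPM. Immediate early genes were 9 higher and 8 lower of 26 (median -0.0033), with Myc 2.90-fold higher and Fos 1.65-fold lower. Host genes of small nucleolar RNAs were 11 higher and 2 lower of 14 (median 1.16). Gas5 had 11.8 to 14.9 CPM in set 1 and 43.8 to 63.8 in set 2, and Snhg12 4.69 to 6.04 and 40.3 to 56.1 CPM. Of 3 metallothioneins, Mt3 was lower (log2 -0.66, adjusted p = 0.000254) and Mt1 and Mt2 were not called.

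**Figure D4:**
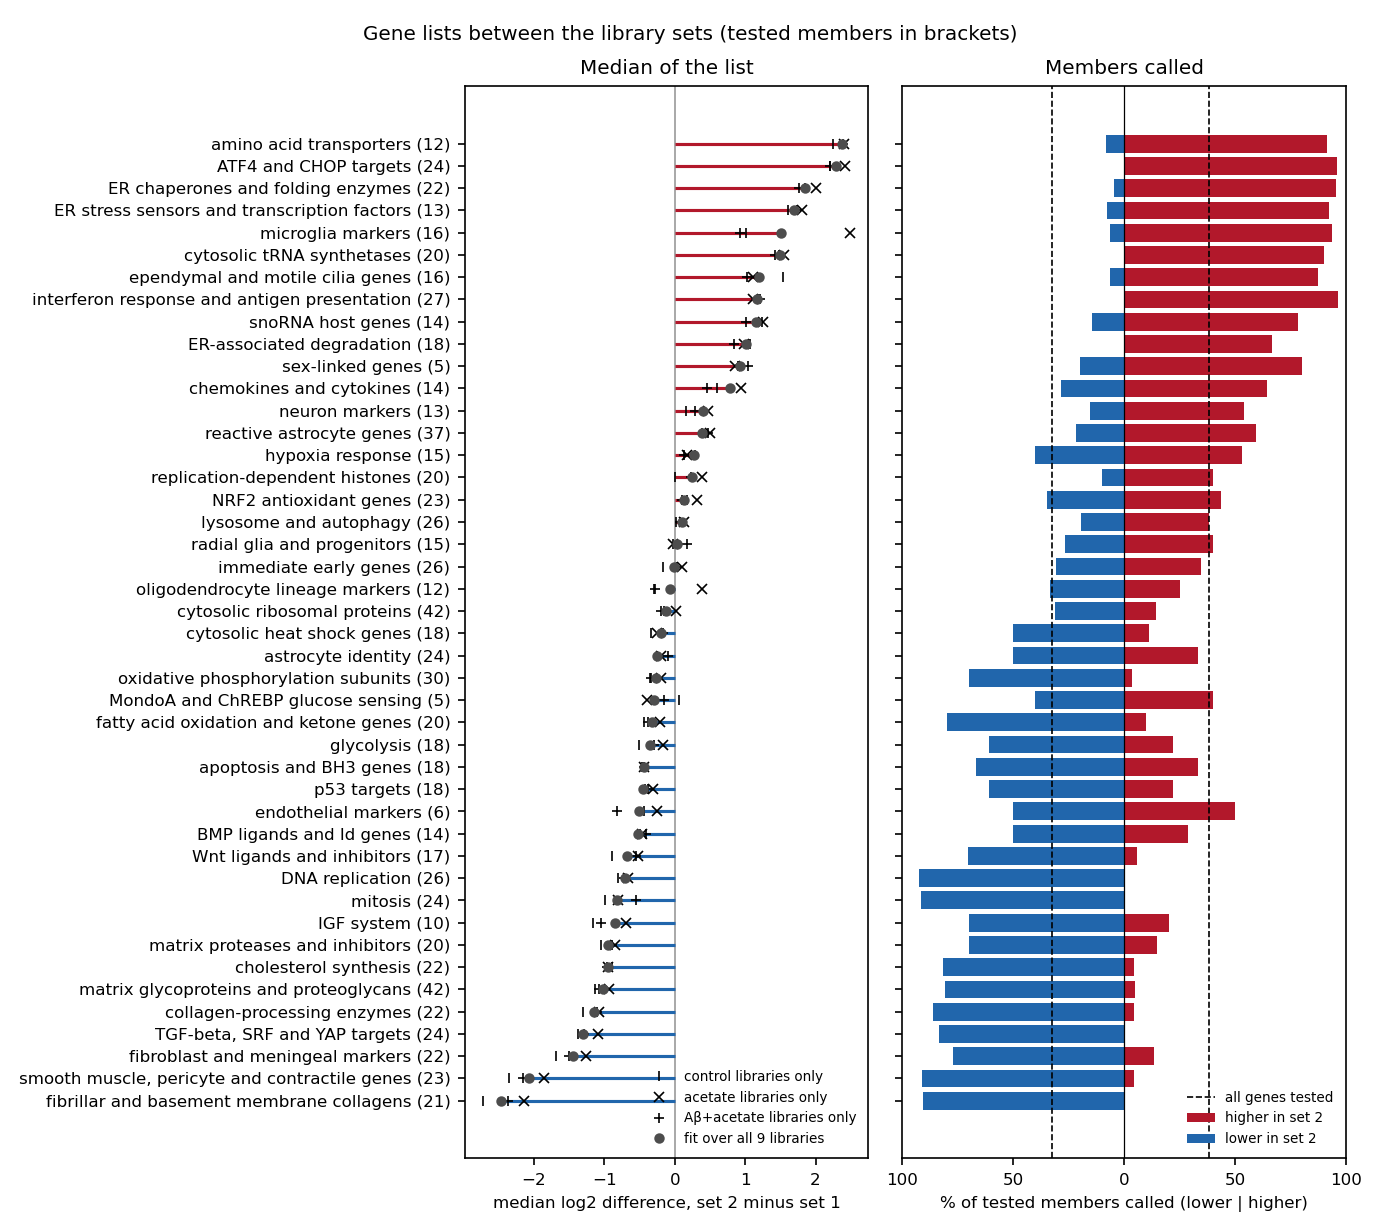
For each gene list, left, the median log2 difference of its tested members (dots, fit over 9 libraries; other symbols, control, acetate or Aβ plus acetate libraries alone) and, right, the percentage of tested members called higher (red) or lower (blue) in set 2, with dashed lines at 38.4% and 32.3% for all genes tested. Amino acid transporter, ATF4, ER stress, microglia, tRNA synthetase, ependymal, interferon and snoRNA host lists lie at the top. Collagen, contractile and fibroblast lists lie at the bottom.

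Collagens were lower in set 2. Of 21 fibrillar and basement membrane collagen genes tested, 0 were higher and 19 lower, with a median log2 difference of -2.46, against 32.3% of all genes called lower. All genes named as collagen chains, in the list or not, together made up 0.581 to 0.622% of CPM in set 1 and 0.101 to 0.116% in set 2. Col3a1, a fibrillar collagen of soft tissue, had 446, 472, 453 and 505 CPM in set 1 and 7.15, 10.6, 6.61, 3.59 and 4.48 in set 2 (log2 -6.02, SE 0.18, adjusted p = 2.62e-10). Col4a1, of basement membranes, had 794 to 952 and 57.9 to 81.7 CPM (log2 -3.82), and Col5a2, which sets fibril diameter, 1000 to 1133 and 159 to 183 CPM (log2 -2.64). The 2 members not called were Col5a3 (log2 -0.16, adjusted p = 0.217) and Col4a6 (log2 -0.12, adjusted p = 0.199). Col7a1, the anchoring fibril collagen, which the list does not hold, had 71.2 to 115 and 0.482 to 0.901 CPM (log2 -5.67).

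Matrix glycoproteins and proteoglycans were 34 lower and 2 higher of 42 (median -1.02). Sparc, a collagen-binding glycoprotein, had 6976, 6629, 7025 and 6976 CPM in set 1 and 3441, 3734, 3369, 3290 and 3311 in set 2 (log2 -1.02, SE 0.07, adjusted p = 2.25e-07). Thbs1, an activator of latent TGF-β, was 4.29-fold lower, at 2821 to 3038 and 609 to 819 CPM. Bgn, a small leucine-rich proteoglycan, was 10.2-fold lower, and Postn, a matricellular protein, 29.7-fold. Laminin chains diverged, with Lamb1 at 109 to 134 and 3.60 to 6.40 CPM (log2 -4.35) and Lamb2 at 436 to 516 and 500 to 601 CPM (log2 0.22, adjusted p = 0.0407, with overlap). Fibronectin, Fn1, differed less than the collagens, at 1303 to 1498 and 875 to 1146 CPM (log2 -0.53). Sparcl1, an astrocyte-derived relative of Sparc, was the other member higher in set 2, at 313 to 391 and 743 to 881 CPM (log2 1.21).

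Enzymes that modify and cross-link collagen were 19 lower and 1 higher of 22 (median -1.15). Lox, lysyl oxidase, which starts cross-linking outside the cell, had 381, 477, 404 and 464 CPM in set 1 and 8.16, 14.4, 7.72, 5.59 and 4.93 in set 2 (log2 -5.63, SE 0.20, adjusted p = 9.44e-10). Plod2, a lysyl hydroxylase, was 5.26-fold lower, P4ha2, a prolyl hydroxylase subunit, 7.02-fold, and the procollagen proteinase Bmp1 2.25-fold. Serpinh1, the collagen chaperone of the ER, did not follow the collagens, at 689 to 881 CPM in set 1 and 673 to 768 in set 2 (log2 -0.04, adjusted p = 0.7). P3h2, a prolyl 3-hydroxylase of basement membrane collagen, was the member called higher (log2 0.40).

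Matrix proteases and their inhibitors were 14 lower and 3 higher of 20 (median -0.94). The tissue plasminogen activator Plat was higher, at 89.5 to 108 and 212 to 226 CPM (log2 1.18). The gelatinase Mmp2 was 15.8-fold lower and its activator Mmp14 2.05-fold. Mmp19, another metalloprotease, was 3.33-fold higher.

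Contractile and mural cell genes were 21 lower and 1 higher of 23 (median -2.07). Mylk, smooth muscle myosin light chain kinase, had 123.4, 113, 101 and 144 CPM in set 1 and 1.29, 1.37, 1.19, 0.776 and 1.54 in set 2 (log2 -5.76, SE 0.14, adjusted p = 5.22e-11). The enteric actin Actg2 had 68.1 to 90.0 and 0.188 to 1.19 CPM (log2 -5.71); reads shared with the near-identical Acta2 make its own level uncertain. The actin-binding proteins Tagln and Tpm1 were 4.27-fold and 4.43-fold lower. Rgs5, a marker of pericytes, had 84.9 to 142 and 4.93 to 7.32 CPM. Cytoplasmic β-actin, Actb, was 2.13-fold lower too, at 2503 to 3185 and 1186 to 1511 CPM (log2 -1.09). The peptidase Anpep, found on pericytes, was the member called higher (log2 1.13).

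Targets of TGF-β, SRF and YAP were 20 lower and 0 higher of 24 (median -1.31). Ccn2, a matricellular protein and textbook YAP target, had 3640, 3534, 3354 and 3690 CPM in set 1 and 235, 283, 152, 253 and 240 in set 2 (log2 -3.95, SE 0.15, adjusted p = 1.44e-09). Its relative Ccn1 was 2.80-fold lower. Pmepa1, a feedback inhibitor of TGF-β signalling, was 13.6-fold lower, and the ligand Tgfb3 5.66-fold, whereas Tgfb1 had 9.74 to 18.7 and 9.60 to 12.4 CPM and was not called (log2 -0.38, adjusted p = 0.0653). Lrrc32, which tethers latent TGF-β at the cell surface, had 59.2 to 92.9 and 0.901 to 1.89 CPM (log2 -5.07). The matrix receptor subunits Itgb1 and Itga8 stood at -1.46 and -5.19. Srf itself overlapped between the sets, at 46.8 to 66.0 and 39.9 to 48.6 CPM (log2 -0.22, adjusted p = 0.0478).

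The CArG box is the element that SRF binds, and both strands were searched for it. Among the TGF-β, SRF and YAP targets and the contractile genes, the windows of Srf, Vcl, Myl9 and Cnn2 held it. Genes of other lists held it too, among them Herpud1 (log2 4.12) and Arrdc4 (log2 0.41), higher in set 2, and Ldha (log2 -1.53), lower. The promoters of Vcl, Myl9 and Cnn2, which differed more than Srf, are shown for the 250 bases before the start, with the box in capitals. Myl9, the regulatory light chain of smooth muscle myosin (chr2:156775214-156775463, plus strand), has it at -161 to -152. Cnn2, an actin-binding calponin (chr10:79988350-79988599, plus strand), has it at -56 to -47. Vcl, vinculin of focal adhesions (chr14:20929148-20929397, plus strand), has it at -227 to -218. Myl9 was 6.62-fold lower in set 2, Cnn2 4.02-fold and Vcl 3.65-fold.
Myl9: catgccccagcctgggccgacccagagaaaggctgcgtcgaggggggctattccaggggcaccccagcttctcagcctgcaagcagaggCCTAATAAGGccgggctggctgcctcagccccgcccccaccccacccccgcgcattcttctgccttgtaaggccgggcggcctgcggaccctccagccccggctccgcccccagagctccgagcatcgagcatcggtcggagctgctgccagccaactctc
Cnn2: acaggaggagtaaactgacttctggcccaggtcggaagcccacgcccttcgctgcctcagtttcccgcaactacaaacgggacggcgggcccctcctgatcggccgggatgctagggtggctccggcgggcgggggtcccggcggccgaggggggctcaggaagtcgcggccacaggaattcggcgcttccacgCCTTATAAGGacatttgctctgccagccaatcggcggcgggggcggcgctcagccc
Vcl: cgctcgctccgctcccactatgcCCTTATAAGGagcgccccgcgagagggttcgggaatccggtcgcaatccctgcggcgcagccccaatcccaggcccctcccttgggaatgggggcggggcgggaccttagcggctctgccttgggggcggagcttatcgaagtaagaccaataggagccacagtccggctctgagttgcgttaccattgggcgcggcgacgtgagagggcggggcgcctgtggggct

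The CArG box was in 1.48% of all promoter windows, in 1.07% of those of genes called higher and 1.89% of those called lower. Among genes lower beyond -1 it was in 23 of 832 (2.76%) and beyond -2 in 11 of 185 (5.95%). Most contractile genes had none in this window, 2 of 19 with a promoter holding it. Acta2 had no match in the window, which says nothing of SRF at that gene.

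Markers of fibroblasts and meninges moved with the matrix genes. Of 22 tested, 17 were lower and 3 higher in set 2 (median -1.45), and their summed CPM was 4046 to 4559 in set 1 and 868.5 to 1224 in set 2. Tbx18, a transcription factor of meningeal and mural cells, had 37.2, 39.8, 34.3 and 50.9 CPM in set 1 and 0.366, 0.508, 0.367, 0.0666 and 0.0938 in set 2 (log2 -5.02, SE 0.16, adjusted p = 3.51e-10). Foxc1, a meningeal transcription factor, was 3.60-fold lower and the proteoglycan Dcn 11.8-fold. Pdgfra, found on fibroblasts and oligodendrocyte precursors, was higher with overlap, at 2.66 to 7.79 and 7.499 to 19.6 CPM (log2 0.90, adjusted p = 0.00441). The 6 listed markers below the filter on low values were Dpt, Slc6a13, Slc47a1, Twist2, Crabp2 and Cdh1. The part of a different share of such cells in the matrix and contractile differences was not tested.

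In 3 lists of growth factor genes more members were lower than higher in set 2. In the IGF system, 7 of 10 were lower and 2 higher (median -0.84). Igfbp5, an IGF-binding protein stored in matrix, had 4240, 4095, 4205 and 3202 CPM in set 1 and 1168, 1668, 1087, 1141 and 1429 in set 2 (log2 -1.60, SE 0.14, adjusted p = 1.15e-06). Igfbp2, another binding protein, was 4.87-fold lower and the ligand Igf1 2.82-fold, while the insulin receptor Insr was 2.10-fold higher. Wnt ligands and inhibitors were 12 lower and 1 higher of 17 (median -0.68), with Wnt5b at 65.3 to 82.4 and 6.18 to 12.4 CPM. BMP ligands and Id genes were 7 lower and 4 higher of 14 (median -0.51), with Bmp4 18.02-fold lower and the BMP target Id3 2.68-fold lower.

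Of the 10 genes with the largest negative differences, Col7a1, Lrrc32, Itga8, P2ry14 and Cyp26b1 lie outside these lists. P2ry14, a receptor for UDP-sugars, had 92.8, 103, 84.8 and 128 CPM in set 1 and 0.507, 0.585, 0.689, 0.311 and 0.3001 in set 2 (log2 -6.12, SE 0.14, adjusted p = 5.17e-11), the largest negative difference. Cyp26b1, which degrades retinoic acid, had 101, 87.9, 69.4 and 121 CPM in set 1 and 0.760, 1.45, 0.735, 0.577 and 0.563 in set 2 (log2 -5.71). Every library of set 2 was under 2 CPM for both genes.

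Proliferation genes were lower in set 2. Of 24 mitosis genes 22 were lower and 0 higher (median -0.82), and of 26 DNA replication genes 24 were lower and 0 higher (median -0.70). Rrm2, which supplies deoxynucleotides, had 61.4, 70.9, 51.5 and 56.2 CPM in set 1 and 14.2, 14.9, 12.0, 15.7 and 14.2 in set 2 (log2 -1.95, SE 0.09, adjusted p = 1.08e-08). The helicase subunit Mcm5 was 4.19-fold lower and the mitotic kinase Cdk1 2.27-fold. Tpx2, a spindle protein, overlapped and was not called (log2 -0.11, adjusted p = 0.403). Replication-dependent histone genes, whose RNA lacks a poly(A) tail, were 8 higher and 2 lower of 20 tested, with 33 listed ones under the filter. The libraries were enriched for poly(A), so these read only the polyadenylated part.

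Metabolic genes were mostly lower. Cholesterol synthesis genes were 18 lower and 1 higher of 22 (median -0.95). Hmgcs1, an early enzyme of the mevalonate pathway, had 687 to 825 and 243 to 304 CPM (log2 -1.43). Lss, which makes lanosterol, overlapped (log2 0.02, adjusted p = 0.833), and Mvd was the member called higher (log2 0.35, adjusted p = 0.00248).

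Glycolysis genes were 11 lower and 4 higher of 18 (median -0.36), with lactate dehydrogenase Ldha 2.87-fold lower, at 246 to 281 and 79.7 to 108 CPM, and hexokinase Hk2 2.12-fold higher. Fatty acid oxidation genes were 16 lower and 2 higher of 20 (median -0.33), with the carnitine transferase Cpt1a at 311 to 318 and 175 to 216 CPM. Oxidative phosphorylation subunits were 21 lower and 1 higher of 30 (median -0.27). Genes of MondoA and ChREBP glucose sensing were 2 higher and 2 lower of 5 (median -0.29). The MondoA targets Txnip and Arrdc4, both arrestin-like proteins, went opposite ways, Txnip 3.69-fold lower (log2 -1.80, adjusted p = 1.94e-07) and Arrdc4 1.40-fold higher (log2 0.41, adjusted p = 0.00205). The partner factor Mlx was higher (log2 0.42) and Mlxip, which encodes MondoA, lower (log2 -0.43). Lysosome and autophagy genes were 10 higher and 5 lower of 26 (median 0.11), and cytosolic ribosomal protein genes 6 higher and 13 lower of 42 (median -0.12), where reads of near-identical pseudogenes leave single values uncertain.

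Astrocyte genes were present in both sets, and their summed CPM was 15760 to 17260 in set 1 and 16550 to 19540 in set 2. Gfap, the astrocyte intermediate filament, had 4094, 3433, 4126 and 4810 CPM in set 1 and 5037, 6111, 4767, 5709 and 6543 in set 2 (log2 0.39, SE 0.10, adjusted p = 0.00406), with overlap. The 24 tested identity genes split into 8 higher and 12 lower (median -0.25). Both glutamate transporters were higher, Slc1a3 at 1190 to 1311 and 2405 to 2902 CPM (log2 1.05) and Slc1a2 at 157 to 191 and 326 to 396 CPM (log2 1.01). Glutamine synthetase Glul was lower, at 927 to 1063 and 313 to 473 CPM (log2 -1.37), as was the potassium channel Kcnj10, at 1193 to 1406 and 411 to 536 CPM (log2 -1.49). Apoe, the main lipid carrier that astrocytes secrete, had 4080, 2898, 3508 and 4045 CPM in set 1 and 4495, 5301, 4329, 4610 and 4640 in set 2 (log2 0.34, adjusted p = 0.017), and this call was lost without control 3 or without acetate 1. Vim, another intermediate filament, was 1.24-fold higher (log2 0.29, adjusted p = 0.0109), a call lost without Aβ plus acetate 1 and with the title number as a block (adjusted p = 0.0824). Pea15a, a phosphoprotein abundant in astrocytes, and Cst3, a secreted protease inhibitor, were 1.53-fold and 2.20-fold lower. Aldh1l1, a folate enzyme used as a pan-astrocyte marker, was 1.35-fold lower. Radial glia and progenitor genes were 6 higher and 4 lower of 15 (median 0.03).

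Reactive astrocyte genes were 22 higher and 8 lower of 37 (median 0.39). Complement C3 had 104, 72.0, 99.9 and 99.1 CPM in set 1 and 1048, 1095, 1315, 1348 and 1365 in set 2 (log2 3.64, SE 0.11, adjusted p = 2.62e-10). The chemokine Cxcl10 was 14.5-fold higher, the transglutaminase Tgm1 12.4-fold and the protease inhibitor Serpina3n 2.16-fold. Among the 8 lower members were Hspb1, Timp1, an inhibitor of metalloproteases that was 2.58-fold lower, and the matrix protein Fbln5, 5.92-fold lower.

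Interferon-response and antigen presentation genes were 26 higher and 0 lower of 27 (median 1.16). Ifi44 had 0.842, 1.08, 1.51 and 1.51 CPM in set 1 and 33.0, 15.9, 21.4, 15.2 and 22.6 in set 2 (log2 3.35, SE 0.21, adjusted p = 9.81e-08). Ifit1, which binds foreign RNA, stood at 4.22 to 6.97 and 38.3 to 65.5 CPM, and the oligoadenylate synthetase relative Oasl2 at 6.89 to 7.83 and 40.6 to 62.1 CPM. Mx1, an antiviral GTPase, was listed at 0 in control 2 and reached 0.285 CPM in set 1, against 3.46 to 10.4 CPM in set 2. B2m, the light chain of MHC class I, was not called (log2 0.10, adjusted p = 0.325). Chemokines and cytokines were 9 higher and 4 lower of 14 (median 0.79), with 9 further members under the filter.

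Microglial markers moved with these immune genes. Of 16 tested, 15 were higher and 1 lower in set 2 (median 1.51), and their summed CPM was 213.2 to 393.5 in set 1 and 594.5 to 895.0 in set 2. Cx3cr1, the fractalkine receptor, had 2.63, 1.76, 0.844 and 3.02 CPM in set 1 and 17.1, 26.8, 31.7, 4.86 and 9.60 in set 2 (log2 2.51, SE 0.41, adjusted p = 0.00019). Within set 2 the Aβ plus acetate libraries held the lowest values of Cx3cr1, Fcrls and Csf1r, a microglial Fc receptor-like protein and the CSF1 receptor. Tmem119, a marker of resident microglia, was the lower member, at 2.26 to 4.19 and 0.421 to 2.18 CPM. No listed marker was at 0 in all 9 libraries, though Aif1 was under the filter. The part of microglia in the immune differences was not tested.

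Ependymal and motile cilia genes were 14 higher and 1 lower of 16 (median 1.20). The axonemal dyneins Dnah5 and Dnah11 were 4.06-fold and 4.96-fold higher, whereas Foxj1, the master factor of motile cilia, had 296 to 447 and 342 to 457 CPM and was not called (adjusted p = 0.17). Mcidas, an early factor of multiciliated cells, was the lower member (log2 -0.64). Their summed CPM was 504.9 to 743.0 in set 1 and 741.9 to 1101 in set 2.

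Oligodendrocyte lineage genes moved in both directions, with 3 higher and 4 lower of 12 (median -0.073). Olig1, a lineage factor that glial progenitors also express, was 8.48-fold lower, at 491 to 634 and 51.9 to 84.1 CPM (log2 -3.07), and Olig2 2.69-fold. Mbp, a myelin protein, was 7.20-fold higher but low, at 1.54 to 3.10 and 10.98 to 20.8 CPM. Neuron markers were 7 higher and 2 lower of 13 (median 0.40, and 0.26 without acetate 1), with 6 under the filter. Tubb3, neuronal tubulin, had 14.0 to 21.3 and 40.3 to 45.1 CPM, and Stmn2, a growth-cone protein, 112 to 137 and 51.9 to 65.2. Endothelial markers were 3 higher and 3 lower of 6 tested, and 6 more were under the filter.

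The sets also differed in sex-linked genes. Xist, expressed from the inactive X chromosome of female cells, had 364, 412, 364 and 342 CPM in set 1 and 237, 137, 210, 224 and 238 in set 2 (log2 -0.79, SE 0.13, adjusted p = 0.000207). All 4 Y-linked genes tested were higher in set 2. Ddx3y, an RNA helicase, had 24.5 to 37.5 and 65.6 to 89.3 CPM (log2 1.28), and Kdm5d, a histone demethylase, 16.2 to 18.1 and 32.0 to 35.4 CPM (log2 0.93). RNA of both sexes was present in every library of both sets.

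**Figure D5:**
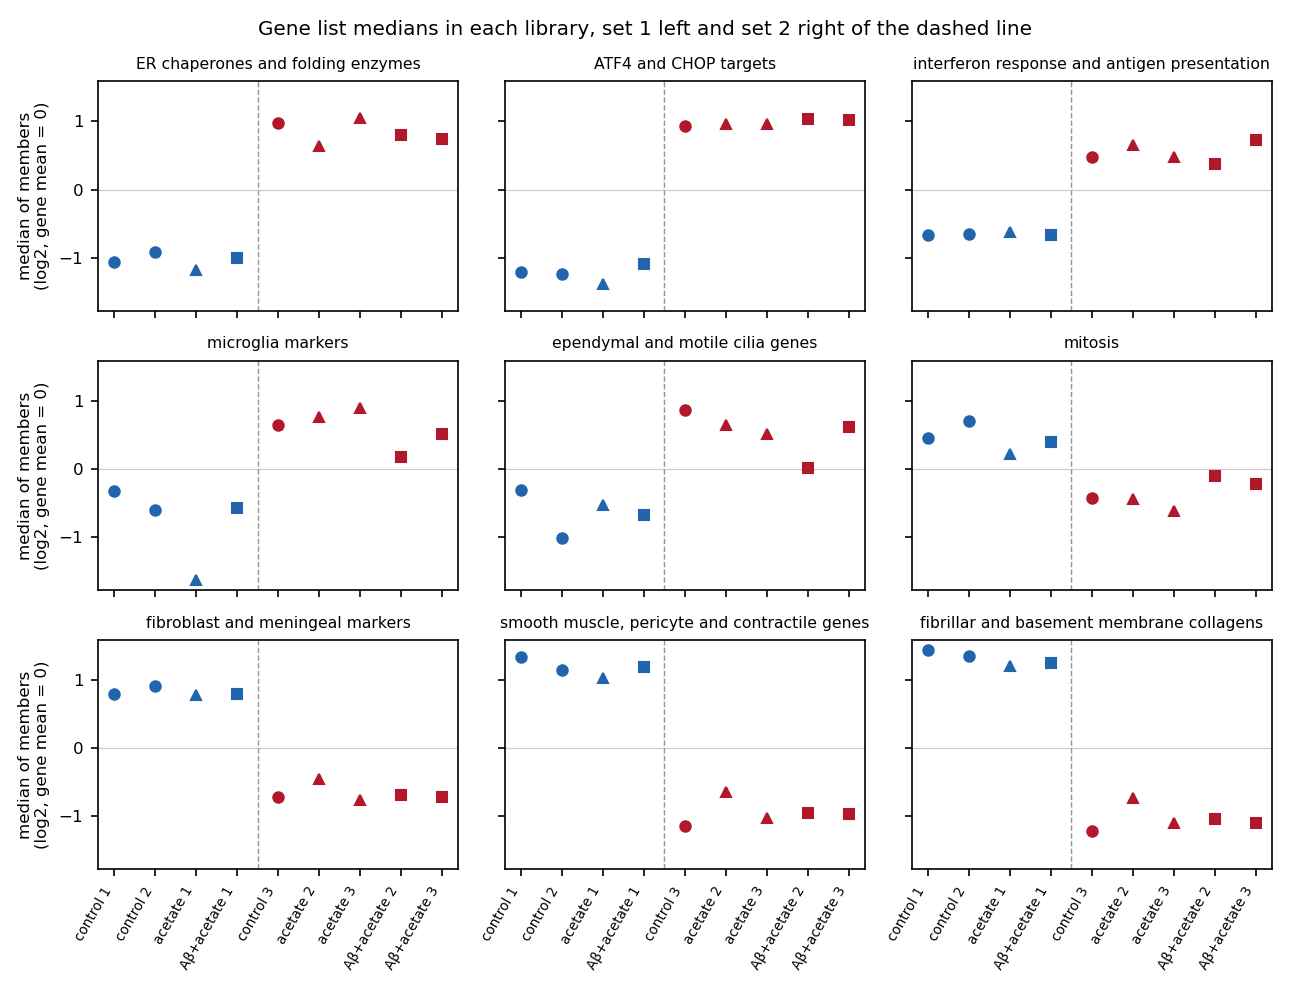
Median over the tested members of 9 gene lists in each library (log2(CPM + 1), each gene centred on its mean over the 9 libraries); circles are control, triangles acetate and squares Aβ plus acetate libraries, blue set 1 and red set 2. Acetate 2 lies nearest to set 1 among the set 2 libraries for ER chaperones, fibroblast markers, contractile genes and collagens, and acetate 1 is the lowest library for microglia markers.

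Treatment groups were compared with the set in the fit. At the same threshold 0 genes (0%) differed between control, acetate and Aβ plus acetate (limma F-test, smallest adjusted p = 0.958). An unadjusted p under 0.05 was found for 434 genes, fewer than the 1 in 20 that chance gives. The gene with the smallest p was Tgm1, which had 2.72 and 3.39 CPM in controls, 3.496 with acetate and 5.10 with Aβ plus acetate in set 1, and 29.5, 39.2, 38.9, 57.2 and 62.8 in set 2. Hmox1 was next, highest in the Aβ plus acetate library of set 1, with 161 CPM, and in those of set 2, with 487 and 395.

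The test of whether the set difference itself varied with treatment called 0 genes (0%; limma F-test, smallest adjusted p = 0.168). An unadjusted p under 0.05 was found for 796 genes, little more than the 1 in 20 that chance gives. The test rests on 3 residual degrees of freedom, since 3 of the 6 combinations hold 1 library. Of the 5 genes with the smallest p, 4 were microglial or leukocyte genes. Ctss, a lysosomal protease of microglia, had 47.0, 43.1, 17.8 and 38.6 CPM in set 1 and 82.9, 92.1, 103, 77.5 and 86.4 in set 2, so its set difference was 0.87 in control, 2.39 in acetate and 1.07 in Aβ plus acetate libraries. The other 3 were Laptm5 (1.15, 2.59 and 1.03), the integrin chain Itgb2 (0.56, 2.00 and 0.21) and Cd84 (0.78, 2.32 and 1.03). In each of them acetate 1 was the lowest of the 9 libraries. The whole microglia list followed, with medians of 1.01, 2.49 and 0.92.

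Within the sets, libraries lay close together. Across genes, libraries of the same set had Spearman correlations of 0.992 to 0.997, and libraries of different sets 0.905 to 0.935. Acetate 2 was nearest to set 1 on the first component, at 37.3, against 41.5 to 48.1 for the other 4 of set 2. Without it, the difference was -4.89 for Col1a1, -2.79 for Acta2 and 4.14 for Slc7a11, each at least as large as with it. Across genes the set difference had a Spearman correlation of -0.233 with the GC content of the longest transcript and 0.031 with exon length (13871 genes). Median GC was 47.5% for genes called higher, 51.7% for those called lower and 49.6% for all tested. What share of the differences goes with GC was not tested.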

How the data were processed

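RNA of 9 primary mouse astrocyte cultures was poly(A)-enriched and made into libraries with a kit that does not mark strand, per the labels' protocols. Overlapping antisense genes therefore cannot be separated. The submitters' processing notes list the aligner STAR (2.7.3a) and both mm10 and GRCm39 as builds, and coordinates here are mm10 because 99.8% of 17644 symbols overlapped the GENCODE M21 gene of that name. The deposited values are CPM, as the authors computed them, each column summing to 1000000. Of the low values, 93.4 to 94.4% per library came out as whole reads within 0.1 read and the rest did not, so counts were not taken as recovered and no count model was run.

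Genes reaching a CPM of 1 in 3 or more of the 9 libraries were tested on log2(CPM + 1) with limma 3.58.1 (R 4.3.3; trend and robust prior), with set and treatment group as terms. The F-tests of treatment and of the interaction used the same values. Adjusted p-values are Benjamini-Hochberg over all genes tested, and those in the report are from this limma fit, apart from 2 cases. The value for the interaction is from a limma fit with the interaction terms added. The value given for Vim with the title number as a block is from the limma fit with that block. Tests of single library values are exact permutations of the library labels. When tested on simulated data, the set comparison recovered, of 50 genes given each shift, 88% at a log2 shift of 0.5, 76% at -0.5 and 98% at 1 and at -1. It also called 10 unshifted genes, and the treatment test called 2 genes where no treatment difference was simulated. The simulation had independent noise and far fewer shifted genes than the data, so recovery in the data may differ.

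The alternatives were other pseudocounts, filters, scalings and priors, no treatment covariate, a replicate block and leaving out each library. Genes were named by rule as the 10 called with the largest differences and the 10 with the largest CPM differences in each direction, the markers, and the lowest p of the F-tests, beside list members. Some genes that this rule takes are not reported here. The members and gene lists were chosen with earlier results of these data known.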

Additional observations from a re-analysis of the deposited data

Results flagged for a closer look

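A library stood far from the others of its set for 8 of 108 groups examined (7.41%), where chance gives about 1 in 20. Acetate 2 accounted for 5 of the 8. In set 2 it was the highest library for Col1a1 at 35.38 CPM, against 13.39 for the next, for Acta2 at 384.3 against 288.2 CPM, and for Cyp26b1 at 1.449 against 0.7599 CPM. It was the lowest for Slc7a11 at 135.1 CPM, against 196.3, and for the summed CPM of the sex-linked genes at 279.6, against 380.4. Without acetate 2 the set difference was -4.89 for Col1a1, -2.79 for Acta2, 4.14 for Slc7a11 and -5.83 for Cyp26b1 on the log2 scale.

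In set 1, control 2 was the lowest library for C3 at 71.99 CPM, against 99.12, and for Sparc at 6629 CPM, against 6976. Aβ plus acetate 1 was the lowest for Igfbp5 at 3202 CPM, against 4095. Without the library concerned, the differences were 3.57 for C3, -1.03 for Sparc and -1.74 for Igfbp5.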

How the results depend on the processing

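The count of 9929 genes called stayed within 1.5 times under every alternative except 1. With the title number as a replicate block it was 4746, 2528 higher and 2218 lower, and 98.4% of them were called in the same direction without it. The block leaves 3 residual degrees of freedom, and the title numbers do not pair the libraries. All libraries numbered 1 are in set 1 and all numbered 3 in set 2. Only number 2 holds both sets, with its control in set 1 and its treated libraries in set 2. Under the block the set difference therefore rests on number 2, where the set goes with control against treated. Deviations of same-numbered libraries from their group means correlated at -0.842 to 0.947, and at -0.408 to 0.268 once the set was removed. Under the block the difference was 5.64 for Ddit3, 3.28 for Hspa5, 6.17 for Trib3, -4.02 for Col1a1 and -2.50 for Acta2. Of all genes called without the block, 47.0% were called in the same direction under it. Single genes were followed under the block only if named by rule, which takes from each list the members with the smallest p. Of those reported here, Vim, Mt3, Mlx, Mlxip, Arrdc4, Ctss, Laptm5, Itgb2 and Cd84 kept their direction but were no longer called under it. Other list members, among them Srf, Slc7a6, Lamb2 and Dnajc10, were not followed under the block.

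Leaving out 1 library at a time gave 8763 to 10095 genes called, 4711 to 5555 higher and 3870 to 4609 lower. The interaction had 0 to 3 genes called, with 3 without Aβ plus acetate 3, and 1 with array quality weights. It could not be fitted without control 3, acetate 1 or Aβ plus acetate 1, each the lone library of its kind in its set, and was not run with the block. Treatment had 0 under all of the alternatives run.

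Directions turned under the block for Rn45s (0.16 on the log2 scale) and for the medians of metallothioneins (0.067), hypoxia genes (-0.029), radial glia genes (-0.061) and immediate early genes (0.21). Within control libraries the MondoA median was 0.063. Within acetate libraries the medians were 0.023 for ribosomal proteins and 0.39 for oligodendrocyte markers. With a mean CPM of at least 5 they were -0.099 for histones and 0.30 for endothelial markers. The cause was not tested. Depth limits the genes under the CPM filter, for which no difference was tested.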
